A study of Mus musculus with 8 samples.

Results

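The genes described here run protein folding in the endoplasmic reticulum (ER) and the unfolded protein response: 35 genes chosen by name, of 23699 entries in the expression tables, covering the stress sensors, the ER chaperones, the enzymes of disulphide bond formation, the factors that send misfolded proteins to degradation, and parts of the translocation machinery. All 35 were found, and 34 had a mean of at least 1 FPKM over the 8 libraries and entered the test. FPKM, the fragments of a gene scaled to its transcript length and to the mapped fragments of the library, is a length-corrected expression level, so levels of different genes may be set side by side. The libraries came from 3T3-L1, a line of mouse fibroblasts used as a model of fat cell formation. The cells were not induced and were collected as preadipocytes 2 days after reaching confluence. Before confluence, 4 samples had received a mix of 3 siRNAs against Fto, the gene of an RNA demethylase, and 4 samples a mix of 3 non-targeting control siRNAs, in both groups as Stealth siRNA at 40 nM, carried by Lipofectamine 2000, for 24 hours. Both groups were therefore transfected cells, and there was no untransfected group and no treatment that provokes ER stress.

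Secreted and membrane proteins fold in the ER. Hspa5 (BiP) and Hsp90b1 (GRP94) bind unfolded chains, calnexin and calreticulin hold glycoproteins through their sugars, and protein disulphide isomerases form and rearrange disulphide bonds. When unfolded protein accumulates, 3 membrane sensors respond. ATF6 is cut in the Golgi to release a transcription factor, IRE1 (Ern1) splices the Xbp1 messenger, and PERK (Eif2ak3) phosphorylates the initiation factor eIF2, which lowers general translation and favours ATF4. Their targets include the chaperones and the degradation factors, many of them through a promoter element called ERSE. Preadipocytes are secretory cells that make large amounts of collagen.

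In the Fto siRNA libraries, 10 of the 34 tested genes passed the threshold (29.4%, against 19.3% of all 11398 tested entries), and they went in both directions. Ero1l, Edem1, Atf6, Dnajb11 and Hyou1 rose. Calr, Dnajb9, Edem3, Edem2 and Hsp90b1 fell. The 5 that rose are 14.7% of the 34, against 6.97% of all tested entries, and the 5 that fell are also 14.7%, against 12.3%. The list was chosen with earlier results of these data known, so these shares only describe it. The changes were small, from -0.22 to 0.33 on the log2(FPKM + 0.5) scale, with a median of -0.03 over the 34 genes and -0.02 over all tested entries. The test was limma on log2(FPKM + 0.5), two-sided, p-values adjusted over all tested entries by Benjamini and Hochberg's method and a threshold of 0.05. With median-ratio scaling of the libraries, 8 of the 34 rose and 5 fell, while the calls over all entries moved from 794 higher and 1401 lower to 1086 higher and 1218 lower. The count that rose was 2 when control replicate 2, control replicate 4 or Fto siRNA replicate 4 was left out and 3 when replicate 1 of either group or Fto siRNA replicate 3 was, and the count that fell was 3 without Fto siRNA replicate 1.

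**Figure D1:**
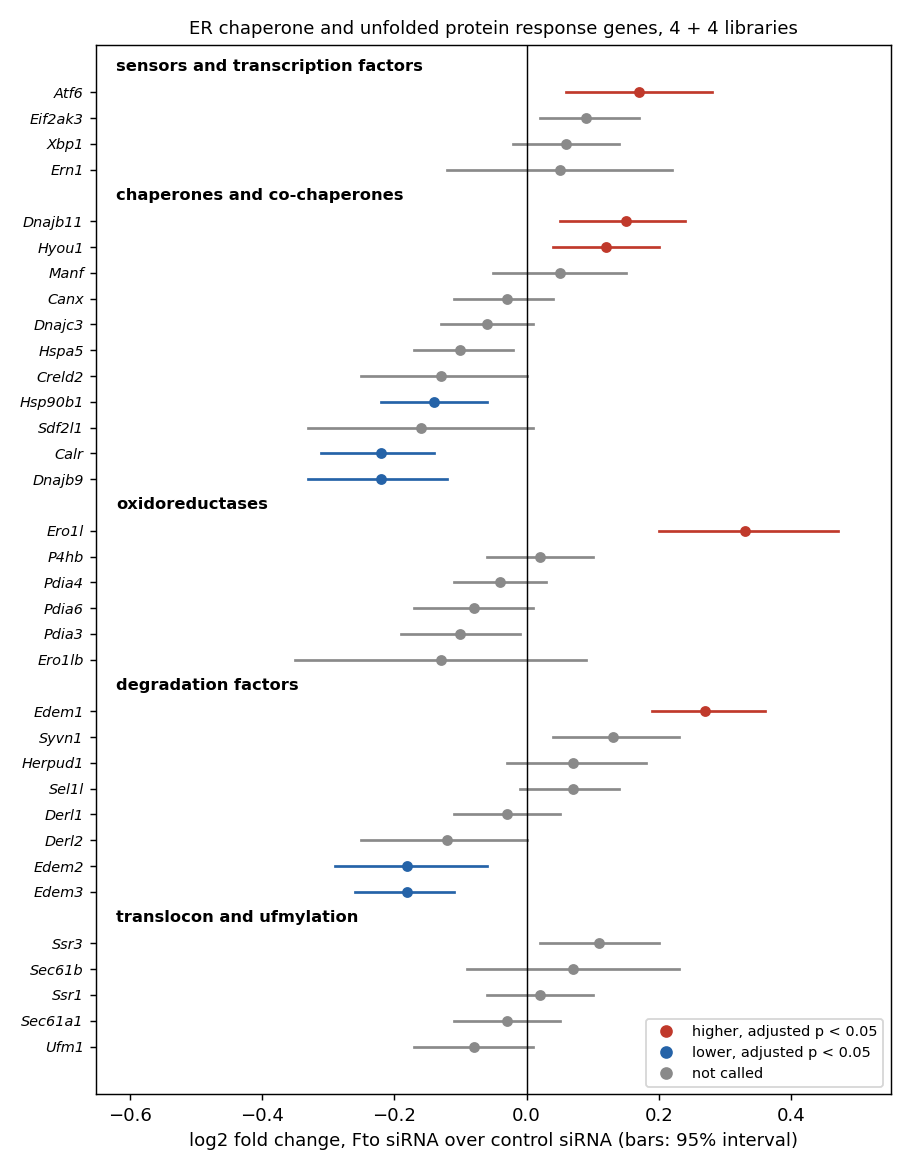
Log2 fold change (Fto siRNA over control siRNA, on the log2(FPKM + 0.5) scale) of the 34 tested genes with 95% intervals, grouped by role. Red genes rose and blue genes fell at an adjusted p below 0.05, and within the chaperones and the degradation factors both colours occur.

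Fto itself checks the labels. Its level was 54.6, 55.4, 56.2 and 55.2 FPKM in the 4 control libraries and 13.8, 10.7, 12.3 and 11.6 FPKM with the Fto siRNA. The means were 55.3 ± 0.647 and 12.1 ± 1.29 FPKM (SD, n = 4 each), 78.1% lower with the siRNA. The log2 change was -2.15 (SE 0.063, limma adjusted p = 7.3e-08), and a two-sided exact permutation test over the 70 arrangements gave p = 0.0286, the smallest that 4 against 4 allows. The labels do not say that the samples came from separate cultures, so p-values measure the spread between these samples, which may be technical. The median gene's deposited upper interval bound lay 6.57% to 7.52% above its value, which is the precision that depth gives, and library totals ran from 454737 to 484842 FPKM, with control replicate 3 the highest. Markers fixed for preadipocytes and fibroblasts summed to 10642 to 11175 FPKM in the control and 11551 to 12918 FPKM in the Fto siRNA libraries, with all 10 of them expressed and Col1a2, Col3a1 and Vim leading. By the limma test 5 of the 10 rose (Col1a1, Col1a2, Col3a1, Thy1 and Ly6a), 2 fell (Pdgfra and Pdgfrb) and Dlk1, Pparg and Vim were not called. The 6 mature adipocyte markers summed to 5.20 to 16.6 and 3.73 to 6.88 FPKM, the highest being control replicate 4. The lists of 5 leukocyte, 4 endothelial and 4 epithelial markers each summed to at most 2.51 FPKM, with Emr1, Epcam and Krt18 at 0 in all 8 libraries. The fibroblast marker sums of the groups do not overlap, and their part in the results below was not tested.

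The binding site for ATF6 and XBP1 links many of these genes, so the promoters were read first. ERSE is CCAAT, any 9 bases, then CCACG. In it NF-Y binds the CCAAT part and the stress factors the CCACG part. RefSeq promoter windows (GRCm38.p6, 250 bases before to 50 after the annotated start, both strands searched) were matched for 30 of the 35 genes. The genes with no entry are Atf6, Hyou1, Manf, Derl1 and Sec61a1. ERSE stood in the windows of 10 of the 30 genes (33.3%) and of 19 of 9017 tested genes (0.211%). A gene was counted once if any of its windows held the element. Only exact matches were counted, so a window without a match can still hold a near match. Of all 32851 windows, 39 held it (0.119%). The element was first described in promoters of this kind, Hspa5 among them, so the share is a description of the list. The shorter ERSE-II, ATTGG, any 1 base, then CCACG, stood in 2 of the 30 genes (6.67%), against 0.0887% of tested genes and 0.0365% of all windows. The CCACG core alone, which lies inside both elements, stood in 26 of 30 (86.7%), against 53.2% of tested genes and 32.8% of all windows. The word TGACGTGG, a core bound by ATF6 and XBP1 in vitro, stood in 0 of 30, against 1.06% and 0.676%. The elements found are printed because they are the shared letters of the list. Each reads 5′ to 3′ on its own strand with its fixed parts in capitals. Distances run to the upstream edge on the strand of the gene, which is the last printed base where element and gene lie on opposite strands.
Hspa5, chr2:34772025-34772043, + strand, from 65 bases before the start: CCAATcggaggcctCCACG
Hsp90b1, chr10:86705638-86705656, - strand, from 212 bases before: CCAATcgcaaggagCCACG
Hsp90b1, chr10:86705533-86705551, + strand, from 107 bases before: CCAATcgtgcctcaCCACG
Calr, chr8:84847075-84847093, + strand, from 162 bases before: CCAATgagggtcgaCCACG
Canx, chr11:50325800-50325818, - strand, from 145 bases before: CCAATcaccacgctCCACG
Creld2, chr15:88819520-88819538, - strand, from 126 bases before: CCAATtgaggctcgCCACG
Dnajc3, chr14:118937827-118937845, + strand, from 105 bases before: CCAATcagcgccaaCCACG
Ero1lb, chr13:12565682-12565700, - strand, from 201 bases before: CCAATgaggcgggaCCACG
Pdia6, chr12:17266491-17266509, + strand, from 98 bases before: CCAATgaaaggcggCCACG
Syvn1, chr19:6046532-6046550, + strand, from 44 bases before: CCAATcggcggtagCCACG
Derl3, chr10:75893242-75893260, - strand, from 156 bases before: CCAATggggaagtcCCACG
Dnajb11, ERSE-II, chr16:22857852-22857862, + strand, from 7 bases after the start: ATTGGCCCACG
Herpud1, ERSE-II, chr8:94386377-94386387, + strand, from 52 bases before: ATTGGGCCACG

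Whole stretches of 250 bases before the start, on the strand of the gene, show the setting of the element in Hspa5, its arrangement in Hsp90b1 with 1 copy in each orientation, and the GC-rich sequence of Ero1l, the gene with the largest rise among the 34, in which neither element was found. Capitals mark the fixed parts of ERSE, read as CGTGG and ATTGG where the element lies on the opposite strand.
Hspa5, chr2:34771840-34772089, + strand: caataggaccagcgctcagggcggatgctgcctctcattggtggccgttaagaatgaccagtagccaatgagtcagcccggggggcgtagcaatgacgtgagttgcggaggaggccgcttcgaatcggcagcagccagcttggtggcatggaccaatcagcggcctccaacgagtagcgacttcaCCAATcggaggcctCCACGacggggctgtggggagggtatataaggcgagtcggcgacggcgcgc
Hsp90b1, chr10:86705445-86705694, - strand: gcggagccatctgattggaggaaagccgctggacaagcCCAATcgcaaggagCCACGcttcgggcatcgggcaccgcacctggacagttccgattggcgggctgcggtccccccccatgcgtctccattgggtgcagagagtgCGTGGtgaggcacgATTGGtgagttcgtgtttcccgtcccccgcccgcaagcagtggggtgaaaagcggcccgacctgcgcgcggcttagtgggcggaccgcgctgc
Ero1l (Ero1a in RefSeq), chr14:45318573-45318822, - strand: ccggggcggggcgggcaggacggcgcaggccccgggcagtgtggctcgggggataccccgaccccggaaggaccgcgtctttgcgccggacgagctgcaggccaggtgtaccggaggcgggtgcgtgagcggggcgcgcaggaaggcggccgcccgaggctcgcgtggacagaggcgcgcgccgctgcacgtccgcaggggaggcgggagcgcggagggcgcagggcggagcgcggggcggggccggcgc

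Of the 9 tested genes of the list with ERSE, 0 rose and 2 fell by the limma test, Calr and Hsp90b1, and 1, Syvn1, was higher at an unadjusted p below 0.05. Called or not, 8 of the 9 log2 changes were below 0, with Syvn1 at 0.13 above it, and their median was -0.10. Of the 20 tested genes with a window that lacks ERSE, 3 rose and 3 fell, 8 values were below 0 and 12 above, and the median was 0.04. Outside the list, 10 tested genes had ERSE in the window. Of these 0 rose, also at an unadjusted p below 0.05, and 3 fell, namely Xlr3a, Xlr3b and Zfp57, and the median was -0.10. Xlr3a and Xlr3b share a family name with Xlr3c, which had a change of 0.02, so these genes may not be separate cases. Over all 9017 tested genes with a window, 609 rose, 1120 fell and 4996 values were below 0, and the median was -0.02. These splits are described without a test. A match names letters in a window and does not show that a factor binds there.

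**Figure D2:**
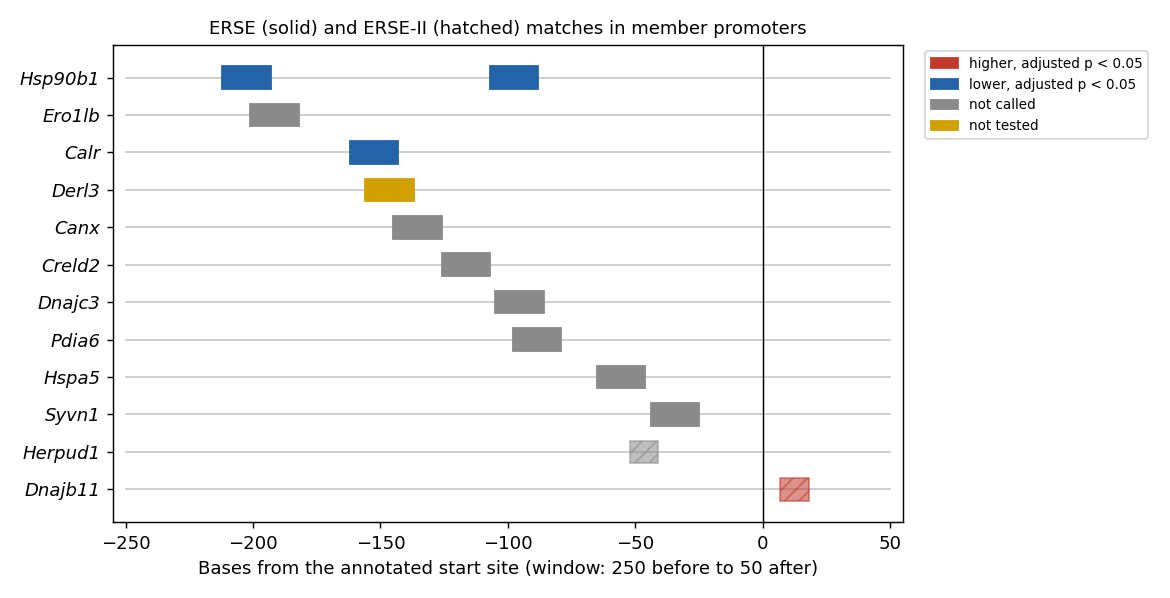
Positions of ERSE (solid) and ERSE-II (hatched) matches along the promoter windows of 12 genes, in bases from the annotated start, coloured by the call in the Fto siRNA libraries. The ERSE matches begin between 212 and 44 bases before the start, and the red match, in Dnajb11, is an ERSE-II.

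Among the sensors and their transcription factors, 1 of 4 rose (25%, against 6.97% of all tested entries) and 0 fell (against 12.3%). The median log2 change was 0.08, and counts over so few genes only describe a role. At an unadjusted limma p below 0.05, 2 of the 4 were higher and 0 lower. Atf6 (mm9 chr1:172634588-172797902) had 10.6, 9.46, 9.53 and 9.57 FPKM in the control and 10.7, 10.7, 11.4 and 11.4 FPKM with the Fto siRNA. The groups touch without overlapping, because control replicate 1 stood close to the siRNA libraries. The change was 0.17 (SE 0.048, limma adjusted p = 0.033). The call was lost without control replicate 2, 3 or 4, without Fto siRNA replicate 3 or 4 and without a filter on low values, with the adjusted p between 0.0535 and 0.093 over those settings and a replicate block.

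Eif2ak3, the kinase that starts the eIF2 branch, measured 18.3, 17.5, 18.0 and 17.8 FPKM in the control and 18.8, 19.1, 19.0 and 19.8 FPKM in the Fto siRNA libraries. Its groups do not overlap, yet the change of 0.09 (95% interval 0.02 to 0.17) had a limma adjusted p of 0.076, and it passed only with median-ratio scaling (0.04) or quantile normalization (0.0495). Ern1, the IRE1 kinase and nuclease, was the lowest sensor at 5.03 ± 0.509 and 5.21 ± 0.389 FPKM (SD, n = 4 each), with overlapping groups and a change of 0.05 (95% interval -0.12 to 0.22, limma adjusted p = 0.71). Xbp1 had 57.4, 58.9, 60.8 and 60.0 FPKM in the control against 60.3, 59.5, 65.1 and 62.4 FPKM. That change was 0.06 (95% interval -0.02 to 0.14, limma adjusted p = 0.29). Gene-level FPKM adds spliced and unspliced Xbp1 messengers together, so IRE1 activity is not measured by it.

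The 11 chaperones and co-chaperones held both rising and falling genes: 2 rose (18.2%, against 6.97% of all tested entries) and 3 fell (27.3%, against 12.3%). The median log2 change was -0.10. Their summed level was 2392 to 2458 FPKM in the control and 2133 to 2253 FPKM in the Fto siRNA libraries, and these ranges do not overlap. The sum is carried by 3 abundant genes, Calr, Hspa5 and Hsp90b1.

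Calr (mm9 chr8:87365987-87370830) encodes calreticulin, the soluble lectin chaperone that also stores calcium. It was the most abundant gene of the list, with 969, 965, 1017 and 969 FPKM in the control and 836, 808, 859 and 852 FPKM in the Fto siRNA libraries. Every siRNA library lay below every control library, although control replicate 3 stood above the other controls. The mean was 14.4% lower, a change of -0.22 (SE 0.039, limma adjusted p = 0.0037). Canx, its membrane-bound relative, measured 152, 146, 143 and 148 FPKM against 143, 139, 145 and 148 FPKM, with overlapping groups and a change of -0.03 (95% interval -0.11 to 0.04, limma adjusted p = 0.54). The ratio of Calr to Canx was 6.38 to 7.10 in the control and 5.74 to 5.92 in the Fto siRNA libraries. This ratio and the others below were picked after the values were seen and carry no test.

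Hsp90b1 (mm9 chr10:86153586-86168189), the ER member of the HSP90 family, had 480.4, 462, 463 and 466 FPKM in the control and 409, 421, 433 and 433 FPKM with the Fto siRNA. The groups are well apart and the mean was 9.31% lower, a change of -0.14 (SE 0.035, limma adjusted p = 0.019). The call was lost when the first library of either group was left out and with quantile normalization, with the adjusted p between 0.0509 and 0.067 over those settings and a replicate block. Hspa5 (mm9 chr2:34627610-34632049), the ER HSP70 and the usual marker of the response, had 602, 599, 602 and 592 FPKM in the control against 552, 547, 560.5 and 581 FPKM. All siRNA libraries lay below all controls, and the controls were tightly grouped. The change of -0.10 (95% interval -0.17 to -0.02) did not pass, with a limma adjusted p of 0.077, and this interval ends below 0.

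The cofactors of Hspa5 went both ways. Dnajb9 (ERdj4; mm9 chr12:45306884-45311055), a J-protein that loads Hspa5 and holds IRE1 inactive, had 20.4, 19.8, 21.4 and 20.1 FPKM in the control and 16.4, 17.7, 16.8 and 18.6 FPKM in the Fto siRNA libraries. All siRNA libraries were lower, the mean by 14.7%, a change of -0.22 (SE 0.046, limma adjusted p = 0.0081). Dnajb11 (ERdj3; mm9 chr16:22857918-22879707), the J-protein that delivers unfolded chains, had 60.6, 58.0, 62.4 and 59.9 FPKM in the control and 65.9, 63.7, 65.8 and 72.1 FPKM with the siRNA. Here all siRNA libraries were higher, by 0.15 (SE 0.043, limma adjusted p = 0.035). Hyou1 (GRP170; mm9 chr9:44187573-44200452), the nucleotide exchange factor of Hspa5, had 31.1, 30.4, 30.0 and 31.5 FPKM in the control and 34.1, 33.0, 32.1 and 34.5 FPKM with the siRNA. Its libraries also did not overlap, and the change was 0.12 (SE 0.035, limma adjusted p = 0.04).

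The calls of Dnajb11 and Hyou1 are fragile. Dnajb11 was not called without control replicate 1, 2 or 4, without Fto siRNA replicate 1, 3 or 4, without a filter on low values and without limma's trend, with the adjusted p between 0.0508 and 0.1 over those settings and a replicate block. Hyou1 was not called without any 1 of the 4 control replicates, without Fto siRNA replicate 1, 2 or 4 and without the trend, with the adjusted p between 0.058 and 0.1 over those settings and the block. The ratio of Dnajb11 to Dnajb9 was 2.91 to 2.98 in the control and 3.59 to 4.01 in the Fto siRNA libraries. The ratio of Hyou1 to Hspa5 was 0.0498 to 0.0532 against 0.0572 to 0.0618.

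The other chaperones did not pass the test. Dnajc3 (p58IPK), a co-chaperone and inhibitor of PERK, had 20.8, 20.6, 20.2 and 20.3 FPKM in the control against 19.4, 19.6, 19.3 and 20.1 FPKM, without overlap and with a change of -0.06 (limma adjusted p = 0.23). Sdf2l1, which partners ERdj3, had 12.6, 16.1, 15.1 and 15.5 FPKM against 14.2, 12.0, 13.3 and 13.0 FPKM. The low control replicate 1 sets the spread there: the change was -0.16 (limma adjusted p = 0.17), and 0.024 was the adjusted p without that library. Creld2 averaged 31.2 ± 2.24 and 28.5 ± 1.59 FPKM, with control replicate 3 highest at 34.6 FPKM (change -0.13, limma adjusted p = 0.15). Manf, a secreted factor released under ER stress, averaged 46.7 ± 2.02 and 48.4 ± 2.36 FPKM (SD, n = 4 each), a change of 0.05 (limma adjusted p = 0.48).

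**Figure D3:**
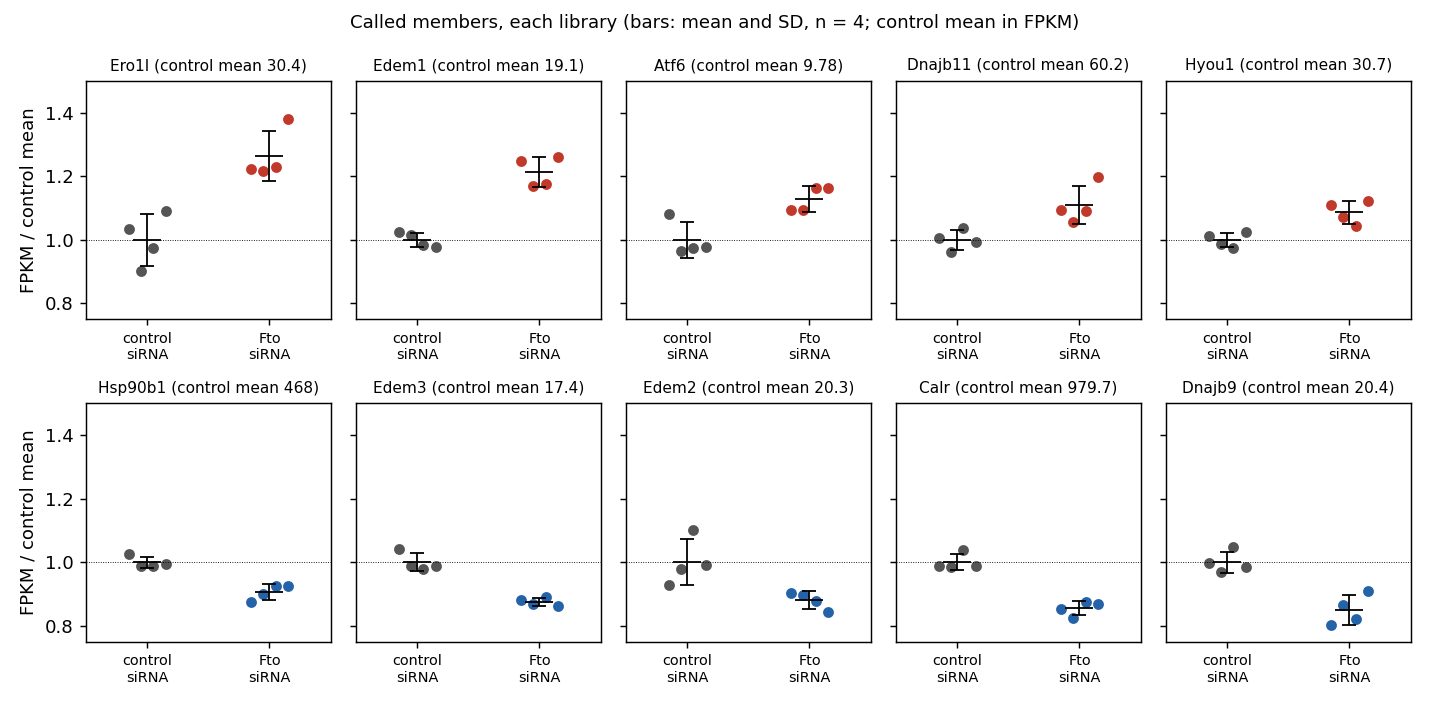
FPKM of each library divided by the control mean, for the 5 genes that rose (top) and the 5 that fell (bottom). Points are libraries and bars are mean and SD (n = 4). In all 10 panels the groups do not overlap, and the closest approach is in Atf6, where control replicate 1 reaches 10.6 FPKM and the lowest siRNA libraries 10.7 FPKM.

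Of the 6 oxidoreductases, 1 rose (16.7%, against 6.97% of all tested entries) and 0 fell (against 12.3%). Their median log2 change was -0.06, and 1, Pdia3, was lower at an unadjusted limma p below 0.05. Ero1l (ERO1 alpha; mm9 chr14:45902762-45938247), the oxidase that recharges protein disulphide isomerase and is also induced by low oxygen, had 31.4, 27.4, 29.6 and 33.2 FPKM in the control and 37.2, 37.0, 37.4 and 42.0 FPKM in the Fto siRNA libraries. All siRNA libraries were above all controls, the mean was 26.3% higher, and the change of 0.33 (SE 0.062, limma adjusted p = 0.0051) was the largest of the 34. Its paralog Ero1lb, near the detection filter, had 1.70, 1.86, 1.70 and 1.63 FPKM against 1.44, 1.88, 1.32 and 1.53 FPKM. The groups overlap and the change was -0.13 (95% interval -0.35 to 0.09, limma adjusted p = 0.4). The ratio of Ero1l to Ero1lb was 14.8 to 20.4 in the control and 19.7 to 28.3 in the Fto siRNA libraries, ranges that overlap.

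The disulphide isomerases of the list did not pass. P4hb, the classical disulphide isomerase, had 616, 617, 641 and 623 FPKM in the control and 635, 611, 636 and 644 FPKM with the siRNA, a change of 0.02 (95% interval -0.06 to 0.10, limma adjusted p = 0.78). Pdia3 (ERp57), which works with calreticulin and calnexin on glycoproteins, had 530.1, 517, 549 and 509.6 FPKM against 473, 482, 505 and 504 FPKM. Its groups do not overlap, and the change was -0.10 (95% interval -0.19 to -0.01, limma adjusted p = 0.11), with 0.025 under quantile normalization. Pdia6, which acts on IRE1 as well as on substrates, averaged 149.9 ± 2.54 and 142 ± 7.16 FPKM (change -0.08, limma adjusted p = 0.19), and Pdia4 176 ± 2.27 and 171 ± 3.51 FPKM (SD, n = 4 each; change -0.04, limma adjusted p = 0.4). The loci of Pdia6 and Pdia4 overlap Atp6v1c2 and Mir704, and whether the libraries keep strand was not stated in the labels.

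Among the degradation factors, close relatives went in opposite directions. Of 8 tested, 1 rose (12.5%, against 6.97% of all tested entries) and 2 fell (25%, against 12.3%), with a median log2 change of 0.02. The 3 called genes are the EDEM lectins, which trim mannose from misfolded glycoproteins and so mark them for export to the proteasome. Edem1 (mm9 chr6:108778635-108809350) had 19.6, 19.4, 18.8 and 18.7 FPKM in the control and 23.9, 22.4, 22.5 and 24.1 FPKM with the Fto siRNA. The groups are far apart against their spread, and the mean was 21.4% higher, a change of 0.27 (SE 0.039, limma adjusted p = 0.0011). Edem3 (mm9 chr1:153602504-153669458) had 18.1, 17.2, 17.0 and 17.2 FPKM in the control and 15.3, 15.1, 15.5 and 15.0 FPKM with the siRNA. All siRNA libraries were lower, the mean by 12.3%, a change of -0.18 (SE 0.035, limma adjusted p = 0.006).

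Edem2 (mm9 chr2:155527409-155555211), which starts the trimming, had 18.8, 19.8, 22.3 and 20.1 FPKM in the control and 18.3, 18.2, 17.8 and 17.1 FPKM with the Fto siRNA. The mean was 11.8% lower, a change of -0.18 (SE 0.051, limma adjusted p = 0.038). That call was lost without control replicate 2 or 4, without any 1 of the 4 Fto siRNA replicates, without a filter on low values and without limma's trend, with the adjusted p between 0.0519 and 0.094 over those settings and a replicate block. In the control libraries the 3 EDEM messengers stood at nearly the same level, with Edem1 to Edem3 at 1.08 to 1.13 and Edem1 to Edem2 at 0.841 to 1.04. With the Fto siRNA the ratios were 1.45 to 1.60 and 1.23 to 1.41.

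No gene of the channel that exports these proteins passed the test. Syvn1 (HRD1), its ubiquitin ligase, had 26.4, 26.5, 28.6 and 25.1 FPKM in the control and 29.7, 28.1, 30.1 and 29.3 FPKM with the siRNA. Control replicate 3 reached into the siRNA range, and the change of 0.13 (95% interval 0.04 to 0.23) had a limma adjusted p of 0.0546. It passed without control replicate 3, with median-ratio scaling, with quantile normalization and with a filter at 5 FPKM, with the adjusted p between 0.014 and 0.0499, and its locus overlaps Mrpl49. Sel1l, the partner of HRD1, averaged 38.7 ± 1.38 and 40.6 ± 0.315 FPKM (SD, n = 4 each; change 0.07, limma adjusted p = 0.19). Herpud1, which assembles the complex and has an ERSE-II, averaged 39.2 ± 2.21 and 41.2 ± 1.94 FPKM (change 0.07, limma adjusted p = 0.33).

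The derlins form part of the same channel. Derl1 averaged 44.3 ± 1.23 and 43.4 ± 1.67 FPKM (change -0.03, limma adjusted p = 0.64). Derl2 averaged 18.3 ± 1.54 and 16.7 ± 0.602 FPKM (SD, n = 4 each; change -0.12, limma adjusted p = 0.16). Derl3 was listed at 0 in 3 control libraries and at 0.0772 FPKM in the fourth, with 0.0411, 0.0425, 0.0473 and 0.0411 FPKM in the Fto siRNA libraries, and was not tested.

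Of the 5 genes of the translocon and of ufmylation, the attachment of the ubiquitin-like protein UFM1, 0 passed the adjusted limma threshold. Over all tested entries 19.3% passed, and the median log2 change of the 5 genes was 0.02. At an unadjusted p below 0.05, 1 was higher, Ssr3, and 0 were lower. Ssr3, a subunit of the translocon-associated complex, came closest, with 247, 239, 253 and 244 FPKM in the control and 252, 268, 259.8 and 282 FPKM with the siRNA. The groups overlap by 1 library, and the change was 0.11 (95% interval 0.02 to 0.20, limma adjusted p = 0.08), which passed with median-ratio scaling and quantile normalization (0.032 at most). Ssr1, of the same complex, averaged 36.1 ± 0.901 and 36.6 ± 1.11 FPKM (change 0.02, limma adjusted p = 0.71). The channel subunits Sec61a1, at 155 ± 2.31 and 151 ± 6.03 FPKM, and Sec61b, at 92.7 ± 9.63 and 97.0 ± 6.84 FPKM, had changes of -0.03 and 0.07 (limma adjusted p = 0.56 for each). Ufm1 averaged 16.8 ± 0.479 and 15.9 ± 0.586 FPKM (SD, n = 4 each), a change of -0.08 (limma adjusted p = 0.2).

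Over the 34 genes, 14 had groups that do not overlap, 6 higher and 8 lower, and 24.2% of all tested entries had such groups. They are the 10 called genes with Eif2ak3, Hspa5, Dnajc3 and Pdia3. Together the 35 genes made up 1.01% to 1.05% of a control library's FPKM and 0.974% to 0.994% of an Fto siRNA library's. Their summed level was 4789 ± 78.7 and 4562 ± 108 FPKM (SD, n = 4 each), with every siRNA library below every control library. This separation rests on Calr, whose means were 979.7 and 839 FPKM: without it the ranges of the sum overlap. The median log2 change over the 34 genes was -0.03, and -0.02 over all tested entries. In bulk RNA, fewer cells of a type and less RNA per cell cannot be told apart. Oxidoreductases summed to 1486 to 1549 and 1433 to 1518 FPKM and degradation factors to 221 to 232 and 222 to 233 FPKM, ranges that overlap, while the sensors summed to 90.6 to 92.9 and 94.6 to 100.5 FPKM.

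The called genes lay at different levels. With a split at a control mean of 100 FPKM, chosen after the values were seen, 10 genes were above it, of which 0 rose and 2 fell, with a median log2 change of -0.06, and 8 of the 10 values were below 0. Those above it include Calr, Hsp90b1, Hspa5, Canx and Pdia6, which have ERSE, so this split and the ERSE split share genes. Below the split, 5 of 24 rose and 3 fell, with a median of 0.05. Over all 768 tested entries above the split, 54 rose, 100 fell and 402 values were below 0, with a median of -0.01. Over the 10630 below it, 740 rose and 1301 fell, with a median of -0.02. Across the 34 genes, which share their 8 libraries, level and change were only weakly related (Pearson's r = -0.14, Spearman's rho = -0.04, given as a description).

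**Figure D4:**
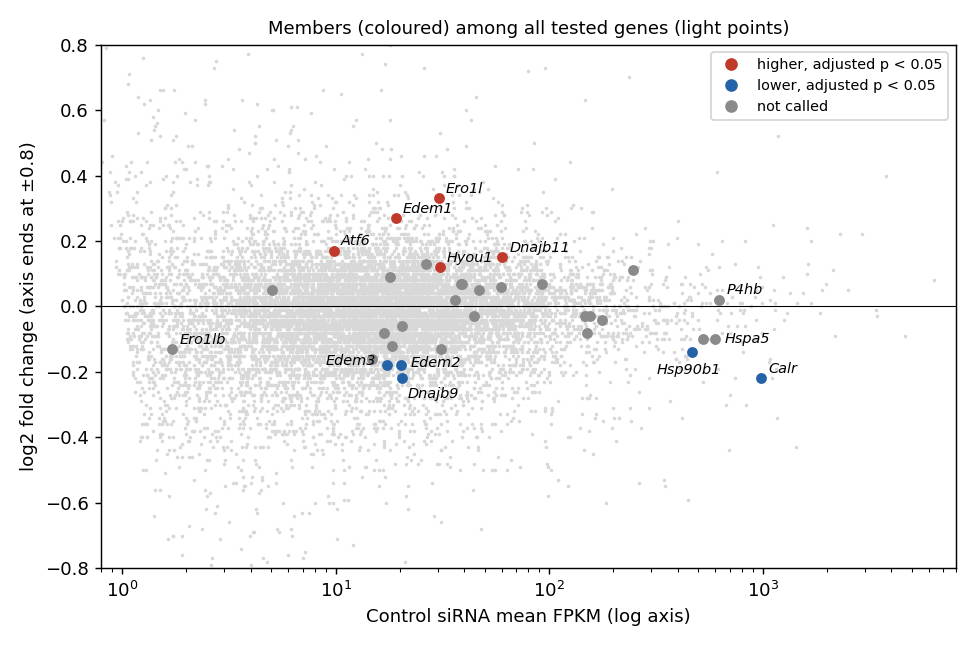
Log2 fold change against the control mean (log axis, FPKM) for the 34 tested genes, coloured by call, over all tested entries in light points. The 5 genes that rose have control means between 9.78 and 60.2 FPKM, while Calr and Hsp90b1 among those that fell have 979.7 and 468 FPKM.

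Other genes of the pathway were listed by their known function, with earlier results of these data known. Of them, 99 were found and 98 tested. Among them 14 rose (14.3%) and 17 fell (17.3%), so 31.6% passed, against 19.3% of all tested entries, and the median log2 change was 0.00. Among those listed as regulators of the unfolded protein response 7 of 17 rose (41.2%, against 6.97% of all tested entries). In this role 0 fell, against 12.3% of all tested entries, and the median was 0.13. At an unadjusted limma p below 0.05 the counts were 9 and 0. The role also holds genes downstream of ATF4, such as Trib3. A difference from the other roles was not tested.

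Trib3, a pseudokinase induced downstream of ATF4, had 17.0, 14.8, 18.1 and 22.3 FPKM in the control and 29.4, 24.2, 23.7 and 29.9 FPKM in the Fto siRNA libraries, a change of 0.57 (SE 0.117, limma adjusted p = 0.0084). Nfe2l1, an ER-anchored transcription factor that induces proteasome genes, had 90.8, 91.3, 95.2 and 97.8 FPKM against 119.7, 118, 115 and 124 FPKM, a change of 0.35 (SE 0.037, limma adjusted p = 2.7e-04). Its estimate in Fto siRNA replicate 1 was marked as failed by the quantifier. Atf4, the transcription factor whose translation PERK favours, had 197, 185, 212 and 198 FPKM against 231, 218, 217 and 249 FPKM. All its siRNA libraries were higher, by 0.21 (SE 0.054, limma adjusted p = 0.024), and the call was lost when Fto siRNA replicate 1 or 4 or 1 of control replicates 1, 2 and 4 was left out, or with no filter on low values (adjusted p between 0.051 and 0.072).

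Ppp1r15b, the constitutive cofactor of the eIF2 phosphatase, rose from 22.1 ± 0.508 to 24.7 ± 0.573 FPKM (SD, n = 4 each; change 0.16, limma adjusted p = 0.0096). Its stress-induced relative Ppp1r15a averaged 11.5 ± 0.313 and 11.1 ± 0.805 FPKM (change -0.05, limma adjusted p = 0.58). Ddit3 (CHOP), the proapoptotic factor of the response, averaged 91.7 ± 7.42 and 103 ± 8.68 FPKM (SD, n = 4 each; change 0.17, limma adjusted p = 0.12). Its locus overlaps Mars, and it passed with a replicate block and without Fto siRNA replicate 2 (adjusted p of 0.023 and 0.032). Atf6b, the paralog of Atf6, had a change of 0.02 (limma adjusted p = 0.87). The other regulators that rose, named after their values were seen, were Chac1 (0.44, limma adjusted p = 0.01), Creb3l1 (0.29, 0.01) and Mbtps1, the protease that first cuts ATF6 (0.12, 0.027).

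In the folding and glycoprotein control list (median -0.04) 3 of 18 rose (16.7%, against 6.97% of all tested entries) and 5 fell (27.8%, against 12.3%). Uggt1, the sensor that returns misfolded glycoproteins to calnexin and calreticulin, rose from 22.1 ± 1.45 to 25.6 ± 0.373 FPKM (SD, n = 4 each), and Mogs, the glucosidase that makes the first cut in the sugar, from 30.5 ± 2.09 to 35.6 ± 1.48 FPKM. Fkbp10, a collagen prolyl isomerase whose locus overlaps Nt5c3l, rose by 0.17 (limma adjusted p = 0.0087). Fkbp14, of the same family, fell by 0.26 on the log2 scale (limma adjusted p = 0.0011), from 68.1 ± 2.82 to 56.8 ± 1.03 FPKM. Ppib (cyclophilin B), another collagen isomerase, fell from 433 ± 20.3 to 380.5 ± 8.94 FPKM (-0.19, limma adjusted p = 0.011), with a locus that overlaps Snx22. Dnajc1, whose locus overlaps Mllt10, fell by 0.18 on the log2 scale (limma adjusted p = 0.015).

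Of the 9 further oxidoreductases (median -0.07) 0 rose, also at an unadjusted limma p below 0.05. Another 3 fell (33.3%, against 12.3% of all tested entries). They were Txndc5, from 234 ± 7.01 to 199 ± 8.31 FPKM (SD, n = 4 each; limma adjusted p = 0.0033), Tmx4 (-0.24, 0.0039) and Pdia5 (-0.17, 0.023). Pdia5 was not called without control replicate 1 or without Fto siRNA replicate 2 or 3 (adjusted p between 0.0549 and 0.063).

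The further degradation factors again went both ways (median 0.03), with 3 of 15 rising and 3 falling. Each is 20% of the role, against 6.97% and 12.3% of all tested entries. Those that rose include Ube2g2, an E2 enzyme of this pathway whose locus overlaps Mir1930, by 0.28 (limma adjusted p = 9.1e-04). Ufd1l, which extracts proteins with the p97 ATPase, rose by 0.16 (0.026). Those that fell were the lectin Os9, the mannosidase Man1b1 (-0.23, limma adjusted p = 0.0057) and the lectin Erlec1 (-0.14, 0.019). Os9 went from 50.7 ± 0.862 to 42.9 ± 2.67 FPKM (SD, n = 4 each, limma adjusted p = 0.0047). Ufd1l was not called without control replicate 1 or without Fto siRNA replicate 2, 3 or 4 (adjusted p between 0.062 and 0.072), and Erlec1 not when control replicate 4 or Fto siRNA replicate 3 was left out, nor with a replicate block (between 0.0513 and 0.0535).

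In translocation and oligosaccharyl transfer (median -0.02) 1 of 22 rose (4.55%, against 6.97% of all tested entries) and 3 fell (13.6%, against 12.3%). The gene that rose was Srprb of the signal recognition particle receptor (0.20, limma adjusted p = 0.016). Those that fell were the signal peptidase subunits Spcs3 (-0.14, 0.02) and Spcs2 (-0.16, 0.022) and the oligosaccharyltransferase Stt3a (-0.11, 0.037). In ufmylation (median -0.07) 0 of 6 rose (1 at an unadjusted limma p below 0.05) and 2 fell (33.3%). The 2 were the protease Ufsp2 (-0.21, limma adjusted p = 0.0087) and Cdk5rap3 (-0.20, 0.019). In the COPII coat (median 0.05), which carries cargo to the Golgi, 0 of 11 rose (2 at an unadjusted limma p below 0.05). There 1 gene fell (9.09%), Sec23b (-0.13, limma adjusted p = 0.033). Each of Spcs2, Spcs3, Stt3a, Cdk5rap3 and Sec23b lost its call without at least 1 library, with adjusted p-values up to 0.099. Stt3a lost it in 10 of the 17 alternative settings, median-ratio scaling and quantile normalization among them, and Sec23b in 7. Over the whole further list the count that fell was 9 without Fto siRNA replicate 3 and 11 without Fto siRNA replicate 2.

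**Figure D5:**
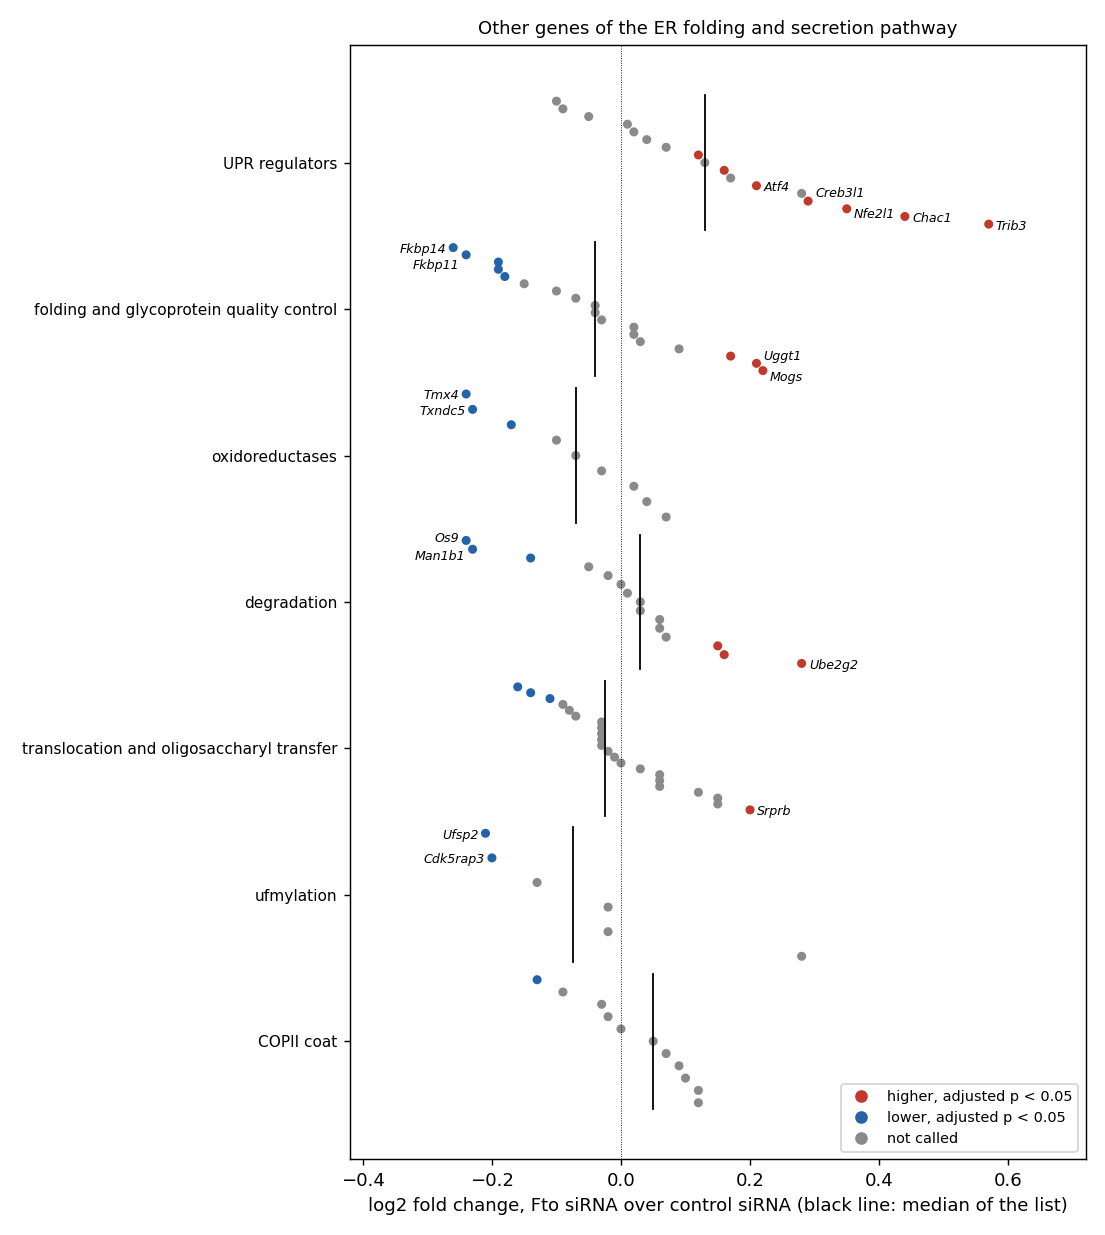
Log2 fold change of 98 further genes of the ER folding and secretion pathway by role, with the median of each list as a black line. Red genes rose and blue genes fell at an adjusted p below 0.05: 7 red and 0 blue among the regulators, 0 red and 3 blue among the oxidoreductases. Folding has 3 red and 5 blue, and degradation 3 red and 3 blue. Of all tested entries 6.97% rose and 12.3% fell.

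The 3′ untranslated regions were searched for the words GACCTTA and ACCTTAA, which had been picked earlier on these data as more frequent among genes that fell. Among tested genes with a 3′ untranslated region in the GENCODE annotation (GRCm38), 13.9% hold either word, with 27.5% of the genes that fell, 8.86% of those that rose and 12.2% of those not called. Of the 34 tested genes of the list, 4 hold one (11.8%), and they went both ways: Edem3 fell, Ero1l rose, and Ero1lb and Ufm1 were not called. The sites are shown because Edem3 and Ero1l, with opposite calls, carry 1 each of these overlapping words; capitals mark the word.
Edem3, chr1:151819250-151819256, + strand: ccaacaatGACCTTAgcatttaa
Ero1l, chr14:45285428-45285434, - strand: tcctggcaACCTTAAaatacact
Ero1lb, chr13:12611010-12611016, + strand: ttttgatgGACCTTAcaggcaag
Ufm1, chr3:53856346-53856352, - strand: tgcccagaGACCTTAttccatat
Calr, Dnajb9, Edem2 and Hsp90b1, which fell, and Edem1, Atf6, Dnajb11 and Hyou1, which rose, have neither word in the annotated region.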

How the data were processed

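RNA from 8 samples of 3T3-L1 preadipocytes, 4 per group, was sequenced, and each sample's gene table was used. The FPKM values and their interval bounds are the authors' deposited estimates per gene. TopHat2 2.0.11, Cufflinks 2.2.1 and the mm9 build are named in the submitters' processing notes, and their settings were not stated. Fragment counts were not used, so depth shows only through the deposited intervals. The labels give no batch. Duplicated libraries were looked for by comparing replicate pairs with their intervals, and median differences between the pairs ran from 0.895 to 1.53 standard errors; all 8 were kept as separate samples. The compiled series tables were not used.

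Values were taken as log2(FPKM + 0.5) for the 11398 entries with a mean of at least 1 FPKM and fitted with limma 3.58.1 (R 4.3.3; eBayes with a trend, two-sided, Benjamini-Hochberg over all tested entries, threshold 0.05). A fold change on this scale understates the change of low genes. Alternatives were 2 other pseudocounts (0.1 and 1), other filters, scalings and variance settings, a replicate block and leaving out each library. The gene list and all other lists were chosen with earlier results of these data known. The text names all 35 genes, Fto, and in each role of the further list up to 3 called genes per direction with the lowest p, with Atf4, Ddit3, Atf6b and Ppp1r15a. Promoter windows are RefSeq's (GRCm38.p6), and 3′ untranslated regions come from GENCODE M21. Gene loci are those of the deposited tables (mm9, 1-based). Of the further symbols, Sels and Ufl1 were not matched by name. Clgn was below the filter. For 1 gene of the further list that this rule names, the values are not reported here.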

Additional observations from a re-analysis of the deposited data

Results flagged for a closer look

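In 65 named genes with 4 libraries per group, 130 groups were checked for a highest or lowest library whose gap to its neighbour exceeds Dixon's 95% critical value for groups of 4, and 8 did so. Chance gives about 1 group in 20. Control replicate 3 was the highest control library for Calr (1017 FPKM, others 965 to 969), Creld2 (34.6 FPKM, others 29.8 to 30.3) and Sec61b (107 FPKM, others 86.8 to 89.1). Control replicate 1 was the highest for Atf6 (10.6 FPKM, others 9.46 to 9.57). Control replicate 4 was the highest for Derl3 (0.0772 FPKM, others 0). Fto siRNA replicate 4 was the highest for Ero1l (42.0 FPKM, others 37.0 to 37.4) and Sec23b (28.2 FPKM, others 26.8 to 27.0). Fto siRNA replicate 3 was the highest for Spcs2 (36.1 FPKM, others 35.7), a gap at the resolution of the printed values. The called genes among them, Calr, Atf6, Ero1l, Sec23b and Spcs2, all kept their calls without the library concerned. Atf6, Sec23b and Spcs2 lost theirs in other settings.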

How the results depend on the processing

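Of the 10 called genes of the list, 5 kept their call under all 17 alternatives: Calr, Dnajb9, Ero1l, Edem1 and Edem3. The number that rose, 5, was 3 with no filter on low values, 3 with limma without a trend, 8 with median-ratio scaling, 8 with quantile normalization, 2 with the replicate block, and 2 to 4 with 1 library left out. The number that fell, 5, was 3 with the replicate block and 3 to 5 with 1 library left out. Among the further pathway genes, the 17 that fell were 11 with the replicate block and 9 to 15 with 1 library left out. The cause of these shifts was not tested, except that leaving out a library reduces the samples. Same-numbered libraries did not deviate together (correlations 0.074, -0.04, -0.19 and -0.09), so the replicate numbers were not taken to pair samples. The sign of 2 uncalled genes changed. With 1 library left out, the Ern1 log2 fold change ran from -0.0019 (without control replicate 3) to 0.09. The Atf6b log2 fold change ran from -0.03 (without Fto siRNA replicate 4) to 0.06, with -0.01 and -0.0022 when replicate 1 of the control or of the Fto siRNA group was left out. Median-ratio scaling and quantile normalization raised the share of calls over all entries that were higher from 36.2% to 47.1% and 47.4%, while moving the median of all entries from -0.017 to 0.002 and 0.005. The smallest called change in the list was 0.12 (Hyou1).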
